A study of Mus musculus with 16 samples.

Results

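The genes described here are the inhibitors of cyclin-dependent kinases (CDKs) and the retinoblastoma pocket proteins: Cdkn1b and Cdkn1c of the CIP/KIP class, Cdkn2b, Cdkn2c and Cdkn2d of the INK4 class, and the pocket proteins Rb1, Rbl1 and Rbl2. They were taken by name, each through the transcript cluster of the array that carries its symbol and no other. Of the 8 genes listed, 7 had such a cluster, 1 each, among 14860 genes measured in all, and Cdkn2d was not analysed here. The 7 comprise 2 CIP/KIP inhibitors, 2 INK4 inhibitors and 3 pocket proteins. In the RefSeq gene table of GRCm38.p6, Cdkn1b is on chromosome 6, Cdkn1c on chromosome 7, Cdkn2b and Cdkn2c on chromosome 4, Rb1 on chromosome 14, Rbl1 on chromosome 2 and Rbl2 on chromosome 8.

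RNA of 16 mouse B cell samples was hybridised to exon arrays, 1 array per sample, in a study that compared normal and Myc-driven malignant B cells with different p53 genotypes. The groups were 6 lymphomas with the genotype p53(246/-), called p53-246, 6 lymphomas with the genotype p53(-/-), called p53-null, 2 samples of p53-246 normal B cells and 2 samples of p53-null normal B cells. The lymphomas were Myc-induced B lymphoma cells from lymph nodes, and the normal B cells came from spleen. All 16 samples were of a C57BL6/129 hybrid background, and the B cells were isolated by magnetic depletion of other cells. Every sample, normal B cells included, thus carried a null p53 allele, and no p53 wild-type group was used here. What the 246 allele changes, how Myc was expressed and the ages of the mice are not given in the sources used here. Nor is it given whether the samples of a group came from separate mice. A p-value here thus reflects the variation among arrays within groups, part of which may be technical. The model shares 1 estimate of the spread per gene over the 4 groups. Most of that estimate comes from the lymphomas, with 6 arrays per group against 2, also in tests between the normal groups. Tissue of origin differed exactly as the cell type did, and the effects of tissue and of transformation on a difference between lymphoma and normal cells cannot be told apart.

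As background, cells enter the cell cycle when cyclin D with CDK4 or CDK6 and cyclin E with CDK2 phosphorylate the pocket proteins, which then release E2F transcription factors. INK4 proteins bind CDK4 and CDK6 and keep cyclin D off them, while CIP/KIP proteins bind assembled cyclin-CDK complexes, foremost those of CDK2. Rb1 binds mainly the activating E2F factors, while Rbl1 (p107) and Rbl2 (p130) pair mainly with E2f4 and E2f5, Rbl1 in cycling cells and Rbl2 in quiescent ones, where it is part of the DREAM complex with the MuvB core. Resting splenic B cells are quiescent, and loss of Cdkn1b or of Arf, a product of the Cdkn2a locus, is known to speed Myc-driven lymphoma in mice.

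Values are the authors' deposited log2 intensities, written below as levels, and they compare a gene between arrays, not genes with each other. The array medians over all transcript clusters lay between 5.06 and 5.35. The SD of the levels over genes was 1.56 on p53-246 lymphoma 6 and 1.57 on p53-null normal sample 1, called the narrow arrays here. It was 1.69 to 1.75 on the other normal arrays and 1.77 to 1.94 on the other lymphoma arrays. Apart from p53-246 lymphoma 6, every lymphoma array thus spread more than every normal array. Leaving out the narrow arrays does not remove this difference in scale between the cell types. The 95th percentile of the mean levels of 800 olfactory and vomeronasal receptor genes, 5.16, served as a low-value cutoff, and a group mean under it is read as near background. Among 9 measured mature B cell markers of 10 listed, 8 were lower in lymphomas than in normal cells and none was higher, with list means of 7.11 to 8.21 on lymphoma arrays and 10.13 to 10.44 on normal arrays. Pax5, the B lineage factor, averaged 9.36 in lymphomas and 10.40 in normal cells, and Cr2 and Fcer2a, markers of mature B cells, were under the cutoff in lymphomas. Neutrophil markers were higher in lymphomas for 6 of 10 and lower for none (list means of 5.96 to 6.85 on lymphoma arrays and 4.58 to 5.70 on normal arrays). Elane, Mpo and Csf3r were under the cutoff in lymphomas and in normal cells. Natural killer cell markers were lower in lymphomas for 5 of 6 (4.70 to 5.81 on lymphoma arrays, 5.68 to 6.80 on normal arrays), macrophage markers for 4 of 8 (4.63 to 6.02 on lymphoma arrays, 6.18 to 6.66 on normal arrays), platelet markers for 4 of 5 (4.11 to 4.77 on lymphoma arrays, 5.52 to 6.68 on normal arrays), T cell markers for 2 of 11 (4.90 to 6.33 on lymphoma arrays, 5.05 to 6.27 on normal arrays), dendritic cell markers for 2 of 5 (4.61 to 5.31 on lymphoma arrays, 5.53 to 5.74 on normal arrays), stromal markers for 2 of 8 (5.72 to 6.09 on lymphoma arrays, 6.22 to 6.41 on normal arrays) and erythroid markers for 0 of 4 (4.65 to 5.47 on lymphoma arrays, 4.78 to 5.12 on normal arrays), and none of these lists had a marker called higher. The part of other cells in the differences below was not tested, and in such bulk samples fewer cells of a type and less RNA per cell cannot be told apart.

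Lymphoma and normal B cells differed in CIP/KIP, INK4 and pocket protein genes, and not in one direction. Averaged over the genotypes, Cdkn2c and Rbl1 rose 3.30-fold and 2.23-fold in lymphomas, Rb1, Rbl2 and Cdkn1b fell 2.57-fold, 2.27-fold and 1.71-fold, Cdkn2b was called higher at levels near background, and Cdkn1c did not pass the test. That is 3 genes called higher, Cdkn2b among them, and 3 lower of 7 measured, by limma with Benjamini-Hochberg adjustment over all genes at a threshold of 0.05, where 38.3% of all genes were called, 20.4% higher and 17.8% lower. For the same 6 genes no lymphoma array overlapped any normal array, which held for 22.3% of all genes. The median log2 difference, lymphoma minus normal, was 0.15 over the 7 genes and -0.09 over all genes. The shares over all genes include many genes near background. Of 7297 genes above the low-value cutoff, 4572 were called, 2958 higher and 1614 lower, with a median of 0.16. Of the 7 genes 6 passed that filter, with 2 called higher and 3 lower.

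**Figure D1:**
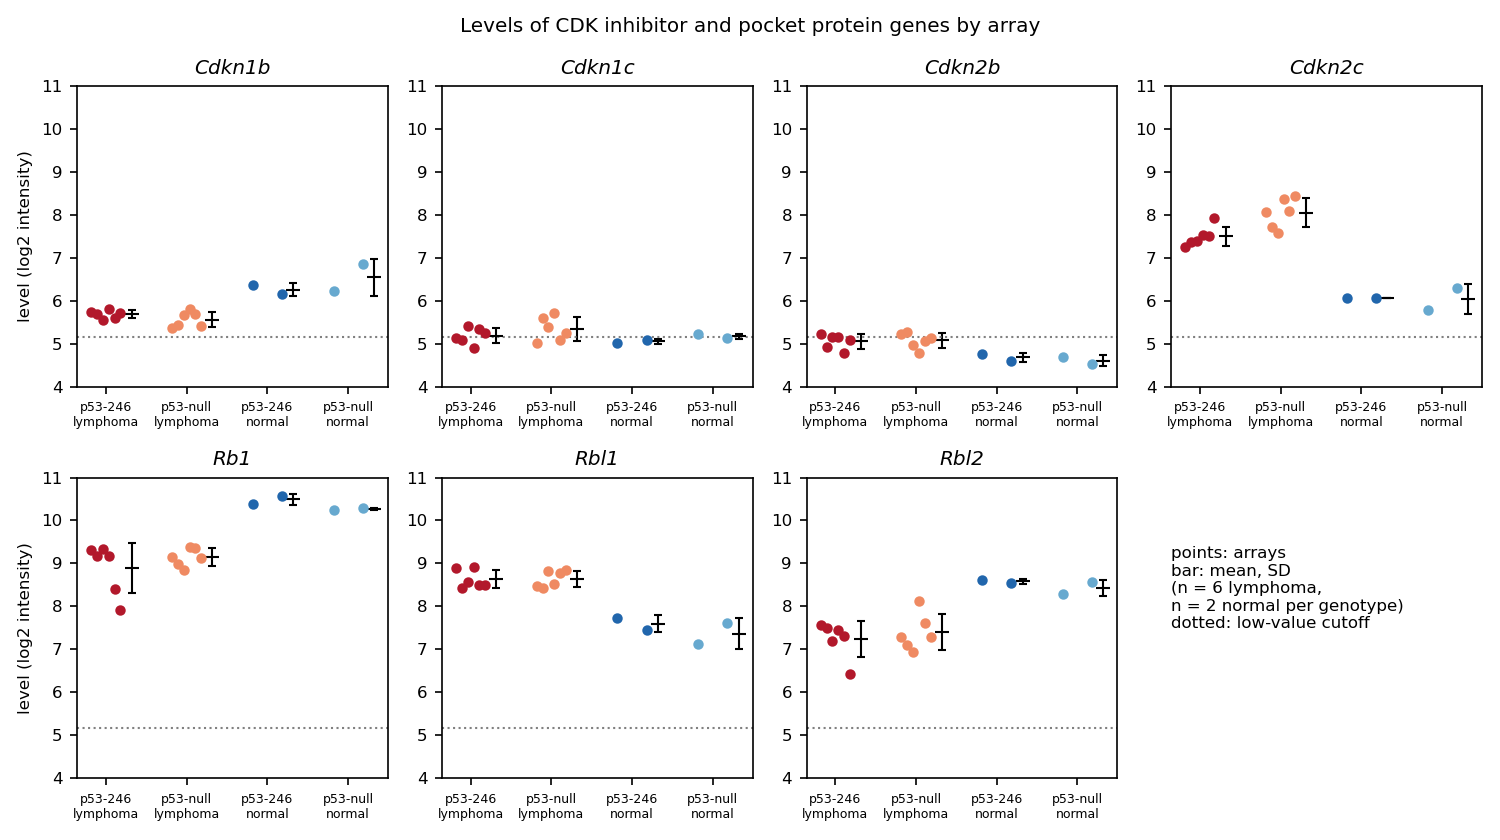
Levels (log2 intensity) of the 7 measured genes on each array, by group, with the mean and SD beside the points (n = 6 per lymphoma group, n = 2 per normal group) and the low-value cutoff as a dotted line. Cdkn2c and Rbl1 lay higher on all lymphoma arrays than on the normal arrays and Rb1, Rbl2 and Cdkn1b lower, while Cdkn1c and Cdkn2b lay near the cutoff.

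Of the CIP/KIP inhibitors, Cdkn1b encodes p27Kip1, which holds cyclin E-CDK2 inactive in resting lymphocytes and is degraded as they enter the cycle. Its level was 5.56 at the lowest, 5.71 at the median and 5.81 at the highest in p53-246 lymphomas, and 5.38, 5.56 and 5.80 in p53-null lymphomas. Normal cells had 6.37 and 6.16 in p53-246 and 6.24 and 6.85 in p53-null cells. All 12 lymphomas were thus lower than all 4 normal samples, and p53-null normal sample 2 was the highest of all. Averaged over the genotypes the log2 difference, lymphoma minus normal, was -0.78 (SE 0.11, 95% interval -1.02 to -0.54, limma adjusted p = 2.32e-05). It was -0.58 within p53-246 (SE 0.16, adjusted p = 0.012) and -0.98 within p53-null (SE 0.16, adjusted p = 0.000131). The call within p53-246 was lost when arrays were centred on their medians (adjusted p = 0.0568) and without p53-246 normal sample 1 (adjusted p = 0.184), at log2 differences of -0.51 and -0.47.

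Cdkn1c encodes p57Kip2, an imprinted inhibitor best known from development and from quiescent stem cells. Its level was 4.91 at the lowest, 5.20 at the median and 5.41 at the highest in p53-246 lymphomas, and 5.03, 5.32 and 5.72 in p53-null lymphomas. In normal cells it was 5.02 and 5.10 in p53-246 and 5.22 and 5.14 in p53-null cells. The groups overlapped, and 5 of the 12 lymphoma arrays and 3 of the 4 normal arrays lay under the cutoff. The log2 difference, lymphoma minus normal, was 0.15 with a 95% interval of -0.11 to 0.41 (limma adjusted p = 0.362), so a change of Cdkn1c was not detectable at this signal.

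Of the INK4 inhibitors, Cdkn2c encodes p18Ink4c, which restrains CDK4 and CDK6 in B cells and is needed as B cells stop dividing to become plasma cells. Its level was 7.26 at the lowest, 7.45 at the median and 7.92 at the highest in p53-246 lymphomas, and 7.59, 8.08 and 8.44 in p53-null lymphomas. The normal samples had 6.07 and 6.07 in p53-246 and 5.79 and 6.29 in p53-null cells. Every lymphoma thus lay above every normal sample, by 0.97 between the lowest lymphoma and the highest normal sample. The rise averaged 3.30-fold (log2 difference 1.72, SE 0.15, 95% interval 1.40 to 2.05, limma adjusted p = 8.34e-08), which places Cdkn2c at the 96.9th percentile of all genes by signed difference. The rise was 2.69-fold within p53-246 (adjusted p = 8.38e-05) and 4.04-fold within p53-null (adjusted p = 1.79e-06).

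Cdkn2c has a pair of transcription starts in the RefSeq promoter table of assembly GRCm38.p6. The window of the downstream start, on the minus strand at chr4:109665323-109665622, is shown because it holds a match to a motif searched for, the E-box CACGTG, the letters that Myc and Max bind. The match is in capitals and begins at base 35, counted from the start as base 1.
Cdkn2c, downstream start: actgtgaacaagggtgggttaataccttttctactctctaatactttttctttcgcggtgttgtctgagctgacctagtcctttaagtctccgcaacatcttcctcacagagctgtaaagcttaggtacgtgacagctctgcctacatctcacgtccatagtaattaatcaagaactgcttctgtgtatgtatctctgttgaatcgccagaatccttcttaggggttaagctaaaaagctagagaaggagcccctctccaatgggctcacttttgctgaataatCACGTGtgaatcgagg
The E-box was found in 7.15% of 32851 such promoter windows. The window of the other start, at chr4:109666707-109667006, held neither it nor an E2F or FoxO match. The search covered both strands with the E2F letters TTTCCCGC, TTTCGCGC, TTTGGCGC and TTTGCCGC and the FoxO letters GTAAACA, which may overlap one another. A match describes the letters of the reference and does not show that a factor binds, and the windows come from a later assembly than the build mm8 named in the submitters' processing notes.

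Cdkn2b encodes p15Ink4b, which lies beside Cdkn2a and is induced in many cells by TGF-beta and held down by Myc with Miz1. Its level was 4.78 at the lowest, 5.12 at the median and 5.23 at the highest in p53-246 lymphomas, and 4.79, 5.11 and 5.27 in p53-null lymphomas. Normal cells had 4.76 and 4.61 in p53-246 and 4.69 and 4.52 in p53-null cells. All lymphomas were higher than all normal samples, but the mean of each of the 4 groups lay under the low-value cutoff, so no size of a change is given. The test of lymphoma against normal cells had a limma adjusted p = 0.00419 averaged over the genotypes, 0.0911 within p53-246 and 0.0233 within p53-null. The calls within a genotype turned with the setting, while the sign stayed positive under every alternative in which Cdkn2b was tested. With array weights the adjusted p was 0.0124 within p53-246 and 0.139 within p53-null. Within p53-null the call was also lost without normal sample 1 and without normal sample 2, in fits that leave 1 array in that group. The difference was larger than in the main fit without sample 1 and smaller without sample 2. Within p53-246 the adjusted p was 0.0435 with arrays centred, 0.0233 after quantile normalization and 0.0478 without p53-246 lymphoma 5.

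Of the pocket proteins, Rb1 encodes the retinoblastoma protein itself, which silences E2F targets and helps to hold cells in a durable exit from the cycle. Its level was 7.91 at the lowest, 9.18 at the median and 9.34 at the highest in p53-246 lymphomas, and 8.84, 9.14 and 9.38 in p53-null lymphomas. In normal cells it was 10.39 and 10.58 in p53-246 and 10.24 and 10.29 in p53-null cells. All lymphomas were lower than all normal samples, and p53-246 lymphomas 5 and 6, at 8.41 and 7.91, were the lowest of all 16. The fall averaged 2.57-fold (log2 difference -1.36, SE 0.21, 95% interval -1.81 to -0.92, limma adjusted p = 4.51e-05). It was 3.03-fold within p53-246 (adjusted p = 0.000537) and 2.18-fold within p53-null (adjusted p = 0.00767). p53-246 lymphoma 6 is a narrow array, and without it the fall was 2.40-fold averaged and 2.65-fold within p53-246 (adjusted p = 1.08e-04). Without p53-null normal sample 1, the other narrow array, the call within p53-null was lost (adjusted p = 0.0615), at a log2 difference of -1.15 (SE 0.41) against -1.12 (SE 0.30) with it.

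Rbl2 encodes p130, the pocket protein of quiescent cells. Its level was 6.43 at the lowest, 7.38 at the median and 7.57 at the highest in p53-246 lymphomas, and 6.95, 7.29 and 8.13 in p53-null lymphomas. Normal B cells were at 8.62 and 8.54 in p53-246 and 8.29 and 8.56 in p53-null cells. No lymphoma reached a normal sample, although p53-null lymphoma 4 came within 0.16 of the lowest one. The fall averaged 2.27-fold (log2 difference -1.18, SE 0.20, 95% interval -1.61 to -0.76, limma adjusted p = 0.000122), 2.53-fold within p53-246 (adjusted p = 0.00167) and 2.04-fold within p53-null (adjusted p = 0.0104). The call within p53-null, at a log2 difference of -1.03 (SE 0.28), was lost with arrays centred (-0.89, SE 0.33, adjusted p = 0.0535), with array weights (-1.07, SE 0.38, adjusted p = 0.0572) and without p53-null normal sample 2 (-0.89, adjusted p = 0.0824).

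Rbl1 encodes p107, whose transcription is itself repressed through E2F sites in resting cells. Its level was 8.43 at the lowest, 8.54 at the median and 8.92 at the highest in p53-246 lymphomas, and 8.42, 8.65 and 8.84 in p53-null lymphomas. The normal samples had 7.73 and 7.45 in p53-246 and 7.12 and 7.62 in p53-null cells. The lymphomas of the 2 genotypes covered nearly the same range, and all lay above all normal samples. The rise averaged 2.23-fold (log2 difference 1.16, SE 0.13, 95% interval 0.89 to 1.43, limma adjusted p = 1.03e-06), 2.06-fold within p53-246 (adjusted p = 0.000288) and 2.42-fold within p53-null (adjusted p = 3.19e-05). Its size depended on the scaling. After quantile normalization it averaged 1.82-fold (log2 difference 0.865, under that interval), with 1.75-fold within p53-246 and 1.90-fold within p53-null.

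The promoters of Rbl1 and Rbl2 are printed together because these related pocket proteins moved in opposite directions. Each window spans 250 bases before to 50 bases after the RefSeq start in GRCm38.p6, that of Rbl1 on the minus strand at chr2:157204485-157204784 and that of Rbl2 on the plus strand at chr8:91069807-91070106. Capitals mark an E2F match.
Rbl1: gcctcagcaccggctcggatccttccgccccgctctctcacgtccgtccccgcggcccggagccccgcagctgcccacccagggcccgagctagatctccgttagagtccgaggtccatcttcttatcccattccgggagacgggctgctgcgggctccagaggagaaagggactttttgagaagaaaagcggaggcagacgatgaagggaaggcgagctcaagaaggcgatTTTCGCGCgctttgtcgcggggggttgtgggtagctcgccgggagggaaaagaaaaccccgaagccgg
Rbl2: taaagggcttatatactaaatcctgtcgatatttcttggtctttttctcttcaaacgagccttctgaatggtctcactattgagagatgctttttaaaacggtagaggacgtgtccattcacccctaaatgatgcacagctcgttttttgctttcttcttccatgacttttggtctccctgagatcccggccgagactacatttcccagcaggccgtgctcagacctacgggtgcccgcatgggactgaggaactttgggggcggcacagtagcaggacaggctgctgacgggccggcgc
The Rbl1 window held the E2F letters TTTCGCGC beginning 18 bases before the start, and 2.26% of all 32851 windows held one of the 4 E2F forms. The Rbl2 window held none of the E2F, E-box or FoxO letters, which says only that these letters are not in this window. The FoxO letters occurred in 3.65% of all windows and in none of the 7 windows found for 6 of the listed genes.

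**Figure D2:**
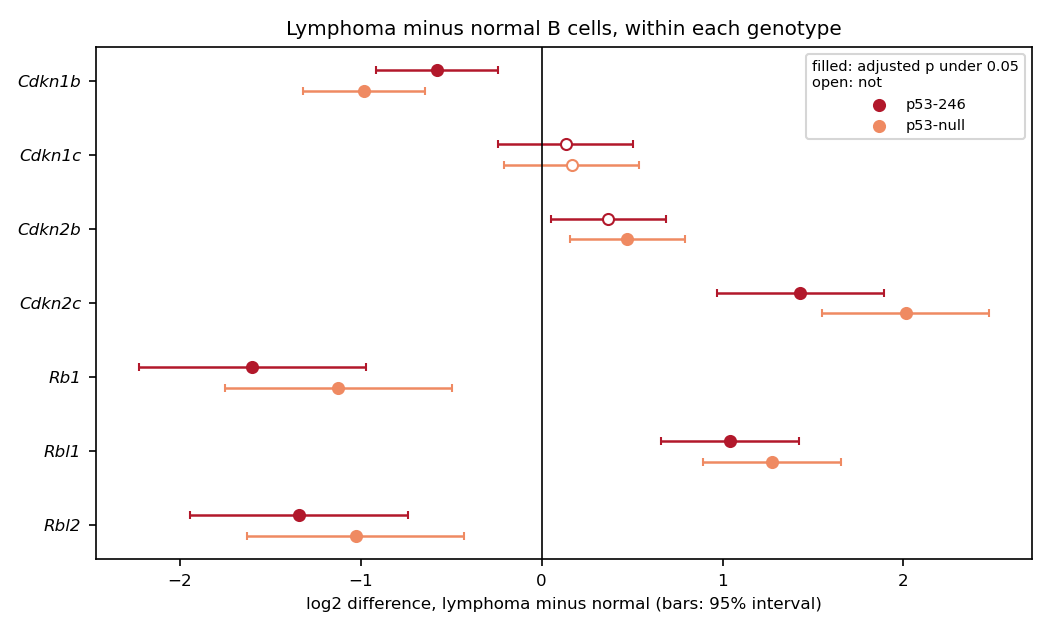
Log2 difference, lymphoma minus normal, of each measured gene within p53-246 and within p53-null cells, with 95% intervals of the limma model and filled points where the adjusted p passed. Cdkn2c reached 1.43 in p53-246 and 2.01 in p53-null cells, and Rb1 -1.60 in p53-246 and -1.12 in p53-null cells.

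Within each genotype the same directions were seen. In p53-246 cells 2 genes were called higher and 3 lower, against 25.2% of all genes in all, 14.5% higher and 10.6% lower, and in p53-null cells 3 were called higher and 3 lower, against 31.9% of all genes, 17.5% higher and 14.4% lower. Arrays of the 2 cell types did not overlap for 6 of the 7 genes within either genotype, which held for 32.8% of all genes in p53-246 and 38.5% in p53-null cells.

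Ratios between members on the same array set those that rose against those that fell. The log2 ratio of Rbl1 to Rbl2, set relative to its mean over the normal samples, was 1.96 to 3.09 in p53-246 lymphomas (median 2.37) and 1.42 to 2.90 in p53-null lymphomas (median 2.26), against -0.15 to 0.14 in the normal samples. p53-246 lymphoma 6 was highest and p53-null lymphoma 4 lowest among the lymphomas. The ratio of Rbl1 to Rb1 was 2.13 to 3.48 in p53-246 lymphomas (median 2.56) and 2.05 to 2.88 in p53-null lymphomas (median 2.31), against -0.23 to 0.24 in the normal samples. The ratio of the inhibitors Cdkn2c to Cdkn1b was 1.86 to 2.55 in p53-246 lymphomas (median 2.13) and 2.28 to 3.38 in p53-null lymphomas (median 2.85), against -0.21 to 0.26 in the normal samples. These ratios are a description, with no test, since they were formed from genes whose differences had been seen. As ratios within an array they show unequal change and do not show which gene moved.

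**Figure D3:**
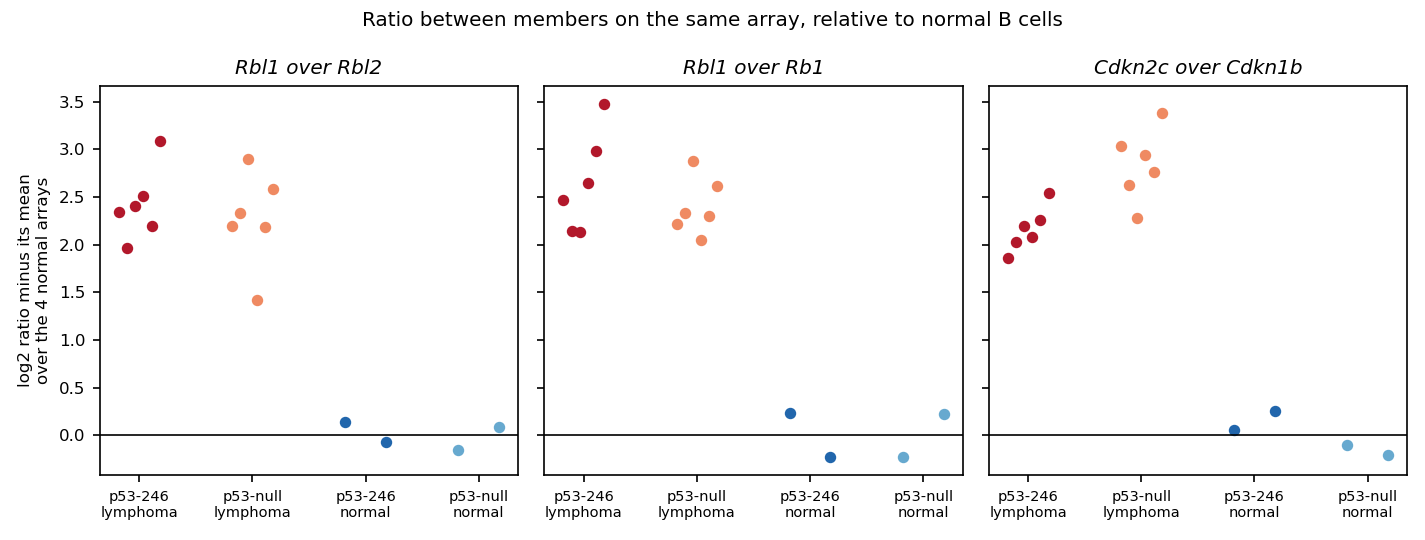
Log2 ratio of 2 genes on the same array minus its mean over the 4 normal arrays, for Rbl1 over Rbl2, Rbl1 over Rb1 and Cdkn2c over Cdkn1b, with 1 point per array. All lymphomas lay above all normal samples, with the lowest lymphoma value at 1.42 for Rbl1 over Rbl2.

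Ordered by group mean, Cdkn2c was highest in p53-null lymphomas, then in p53-246 lymphomas, p53-246 normal cells and p53-null normal cells, and Rbl1 had the same order. Rb1 and Rbl2 were highest in p53-246 normal cells, then in p53-null normal cells, p53-null lymphomas and p53-246 lymphomas. Cdkn1b was highest in p53-null normal cells, then in p53-246 normal cells, p53-246 lymphomas and p53-null lymphomas. For these 5 genes the step between lymphoma and normal cells separated all arrays. The lymphoma groups overlapped each other, and the normal groups overlapped each other except for Rb1. For Rb1 the step between the normal groups also separated all their arrays.

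The genes differed in how much they varied among arrays of one group. The residual SD of the model was 0.41 for Rb1 and 0.39 for Rbl2, at the 88.8th and 86.7th percentile of all genes, where the median gene had 0.24. Cdkn2c had 0.28 and Rbl1 0.22. Cdkn1c had 0.21, Cdkn1b 0.18 and Cdkn2b 0.17. The most variable members over the 16 arrays were thus the pocket proteins that fell. However, p53-246 lymphoma 6 lay 0.98 under its group mean in Rb1, 0.81 under it in Rbl2 and 0.42 above it in Cdkn2c. Without that array the SE of the averaged difference, lymphoma minus normal, went from 0.21 to 0.15 for Rb1. It went from 0.20 to 0.16 for Rbl2, and for Cdkn2c it was then 0.14.

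Between the genotypes, none of the 7 genes passed the test in lymphomas. Cdkn2c had the largest difference, at 7.50 ± 0.23 in p53-246 lymphomas and 8.05 ± 0.34 in p53-null lymphomas (SD, n = 6 each), and the ranges of the genotypes overlapped. The log2 difference, p53-246 minus p53-null, was -0.55 (SE 0.15, 95% interval -0.88 to -0.23), with an unadjusted p = 0.00235 and an adjusted p = 0.994 in limma. By signed difference it stood at the 0.357th percentile of all genes. In the same contrast limma called 0 of 14860 genes (0%), with 445 at an unadjusted p under 0.05. The model without moderation of variances called 0 as well, with 448. Where no gene differed, a share of about 0.05 of all genes would have such a p. The counts here and, below, for normal cells and the interaction are smaller. Lymphomas of the genotypes did not overlap in 0.0942% of all genes and in none of the 7.

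For the other genes the log2 difference in lymphomas, p53-246 minus p53-null, had an interval that included 0. It was -0.25 for Rb1 (95% interval -0.70 to 0.19), -0.16 for Rbl2 (-0.58 to 0.27) and -0.0088 for Rbl1 (-0.28 to 0.26). It was 0.12 for Cdkn1b (-0.12 to 0.36), -0.16 for Cdkn1c (-0.42 to 0.11) and -0.02 for Cdkn2b (-0.25 to 0.20). All 7 intervals lie within 1 log2 unit of 0, and they do not show that the levels are alike. The sign of the differences of Cdkn2b, Rbl1 and Rbl2 turned under some settings. That of Rb1 was -0.06 without p53-246 lymphoma 6 and -0.0075 with array weights.

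In normal B cells, with 2 samples per genotype, none of the 7 genes passed either (smallest unadjusted p = 0.168, for Cdkn1b), where limma called 0 of all genes (0%), with 505 at an unadjusted p under 0.05 and 494 without moderation. The p53-246 samples lay under the p53-null samples in Cdkn1c and above them in Rb1 without overlap, as did 29.7% of all genes in one direction or the other. Cdkn2c differed by 0.03 between the genotypes (95% interval -0.54 to 0.60). The interaction, which asks whether the genotype difference is the same in lymphoma and normal cells, was called for 0 of 14860 genes, with 540 at an unadjusted p under 0.05 and 467 without moderation. It was -0.58 for Cdkn2c (unadjusted p = 0.0767, limma adjusted p = 0.997) and 0.40 for Cdkn1b (unadjusted p = 0.0912, limma adjusted p = 0.997). Leaving out 1 array gave -0.83 to -0.34 for Cdkn2c and 0.10 to 0.71 for Cdkn1b, with the ends nearest 0 without p53-null normal sample 1 for Cdkn2c and without p53-null normal sample 2 for Cdkn1b. The larger rise of Cdkn2c in p53-null than in p53-246 cells was therefore not shown to differ between the genotypes.

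**Figure D4:**
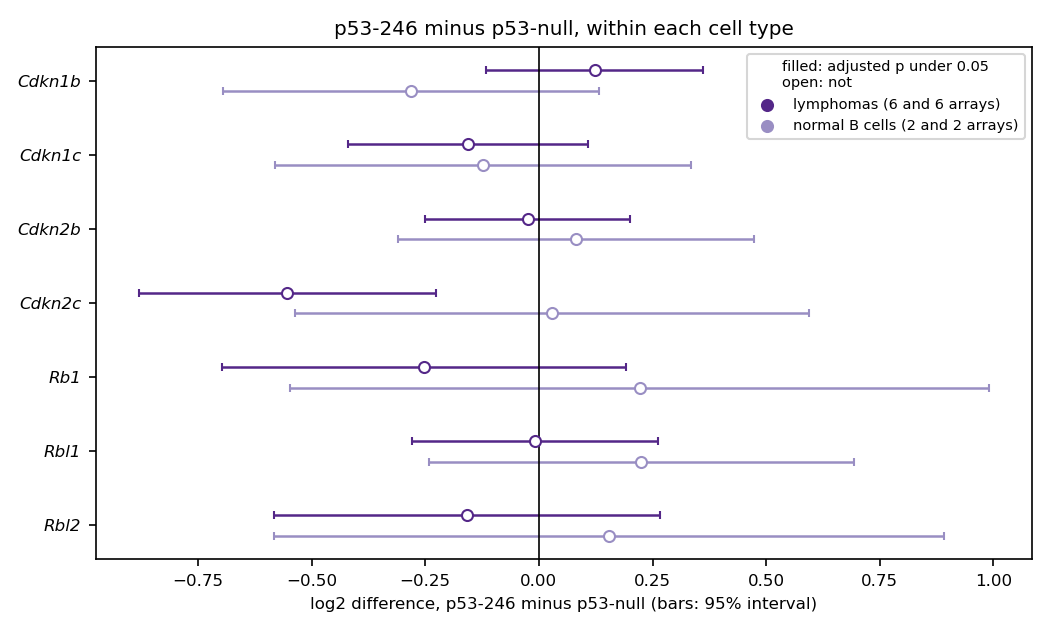
Log2 difference, p53-246 minus p53-null, of each measured gene in lymphomas (6 and 6 arrays) and in normal B cells (2 and 2 arrays), with 95% intervals of the limma model. All points are open, since none passed the adjusted threshold, and the interval of Cdkn2c in lymphomas runs between -0.88 and -0.23.

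Most measured cyclins and kinases of the G1 and S phases, and genes that activate those kinases, were higher in lymphomas. Of 12 measured (13 listed), 10 rose and 1 fell, with a median log2 difference, lymphoma minus normal, of 1.61. Over all genes in the same comparison 38.3% were called, 20.4% higher and 17.8% lower, and each list below is to be read against these shares and the median of -0.09. Calls were more frequent among genes with signal. Of 7297 genes above the low-value cutoff, 2958 were called higher and 1614 lower, with a median of 0.16. Ccna2, cyclin A2, rose by 3.42 (SE 0.10), Ccne2, a cyclin E, by 2.98 (SE 0.16) and Ccnd1, a D cyclin, by 2.38 (SE 0.22). Ccnd2, the D cyclin most used by B cells, fell by 1.58 (SE 0.28), so the D cyclins were divided. The Cdkn2c and Cdkn2b target kinases Cdk4 and Cdk6 were both among the genes that rose.

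Of 8 measured E2F and DP factors (10 listed), 6 rose and none fell (median 0.85). E2f1, among the 6, was under the cutoff in lymphomas and in normal cells, as was E2f2, which was not called. E2f8, an atypical repressor, rose by 3.0 (SE 0.14), and Tfdp2, a DP partner, by 1.09 (SE 0.14). E2f7, the other atypical repressor, was under the cutoff in normal cells, so its difference of 1.32 (SE 0.10) is a lower bound. Among 17 measured E2F target genes (20 listed), all 17 were called higher (median 2.42), with Uhrf1, which guides maintenance DNA methylation, at 3.69 (SE 0.21) and Mcm3, a subunit of the replicative helicase, at 2.95 (SE 0.18). Cdk1, the mitotic kinase, was under the cutoff in normal cells, so its 2.86 (SE 0.13) is a lower bound. The list of the MuvB core, which joins Rbl2 in quiescence and B-Myb in cycling cells, and of B-Myb itself had 4 of 6 measured genes higher and 1 lower (8 listed, median 0.86). Rbbp4, a histone-binding subunit, rose by 1.05 (SE 0.10) and Lin9 by 0.95 (SE 0.13), Mybl2, which is B-Myb, was at 1.59 (SE 0.24), a lower bound since it was under the cutoff in normal cells, and Lin37, needed for repression by DREAM, fell by 0.46 (SE 0.14). Lin37 was called within p53-null (-0.69, limma adjusted p = 0.0153) and not within p53-246 (-0.23, adjusted p = 0.514).

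The list named Cdkn1b turnover holds genes linked to the degradation or movement of the p27 protein, not all of them directly. Of 9 measured (10 listed), 5 rose and none fell, with 4 not called (median 0.47, against 20.4% of all genes called higher). Skp2, the ubiquitin ligase subunit that recognises p27, rose by 2.23 (SE 0.15), Cops5, which carries p27 out of the nucleus, by 1.48 (SE 0.12) and Skp1, which ties Skp2 to its ligase complex, by 1.35 (SE 0.14). Of 7 measured FoxO factors and upstream kinases (10 listed), 1 rose and 2 fell (median -0.19), and 3 called of 7 is near the 38.3% called over all genes. Foxo1 and Foxo3, which activate Cdkn1b and Rbl2, fell by 1.16 (SE 0.16) and 0.52 (SE 0.11), and Akt1, a kinase that inactivates FoxO factors, rose by 1.28 (SE 0.20). Foxo3 was called within p53-null (-0.71, limma adjusted p = 0.0022) and not within p53-246 (-0.34, adjusted p = 0.137). Of 7 genes for Myc, Miz1 and their partners at inhibitor promoters, 1 fell and none rose (median -0.05), beside 38.3% called over all genes. The transcript cluster of Myc itself fell by 2.29 (SE 0.14), and Zbtb17, which is Miz1, was at -0.04 (SE 0.09, limma adjusted p = 0.788). How Myc was expressed in the lymphomas is not given, and whether this cluster reads all their Myc RNA was not tested.

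Partners through which pocket proteins act on chromatin were mostly higher. Of 8 measured (11 listed), 5 rose and 1 fell (median 1.09), with the DNA methyltransferase Dnmt1 at 1.51 (SE 0.11), the histone-binding protein Rbbp7 at 1.37 (SE 0.10), the SWI/SNF ATPase Smarca4 at 1.34 (SE 0.15) and the histone demethylase Kdm5a, which binds Rb1, at -0.44 (SE 0.17). Kdm5a was close to the threshold (limma adjusted p = 0.0477) and was not called within p53-246 (adjusted p = 0.0782) or p53-null (adjusted p = 0.391). Of 3 measured phosphatase genes that act on pocket proteins (6 listed), Ppp2ca rose by 0.67 (SE 0.09) and Ppp1cb by 0.55 (SE 0.09). Of 7 neighbours and relatives of the inhibitors, 3 rose and none fell (median 0.04), again near the 38.3% called over all genes. Cdkn3, a phosphatase of CDKs, rose by 2.09 (SE 0.21). Mtap and Cdkn2a are neighbours of Cdkn2b on chromosome 4. Mtap rose by 1.66 (SE 0.11), and Cdkn2a, which encodes p16Ink4a and Arf, was at 1.55 (SE 0.11) and under the cutoff in normal cells, a lower bound. Cdkn1a, the CIP/KIP inhibitor most known as a p53 target, was under the cutoff in lymphoma and in normal cells. In none of these lists did limma call a gene between the genotypes, in lymphomas or in normal cells. It called 0 of all 14860 genes there, so this says nothing particular about the lists.

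**Figure D5:**
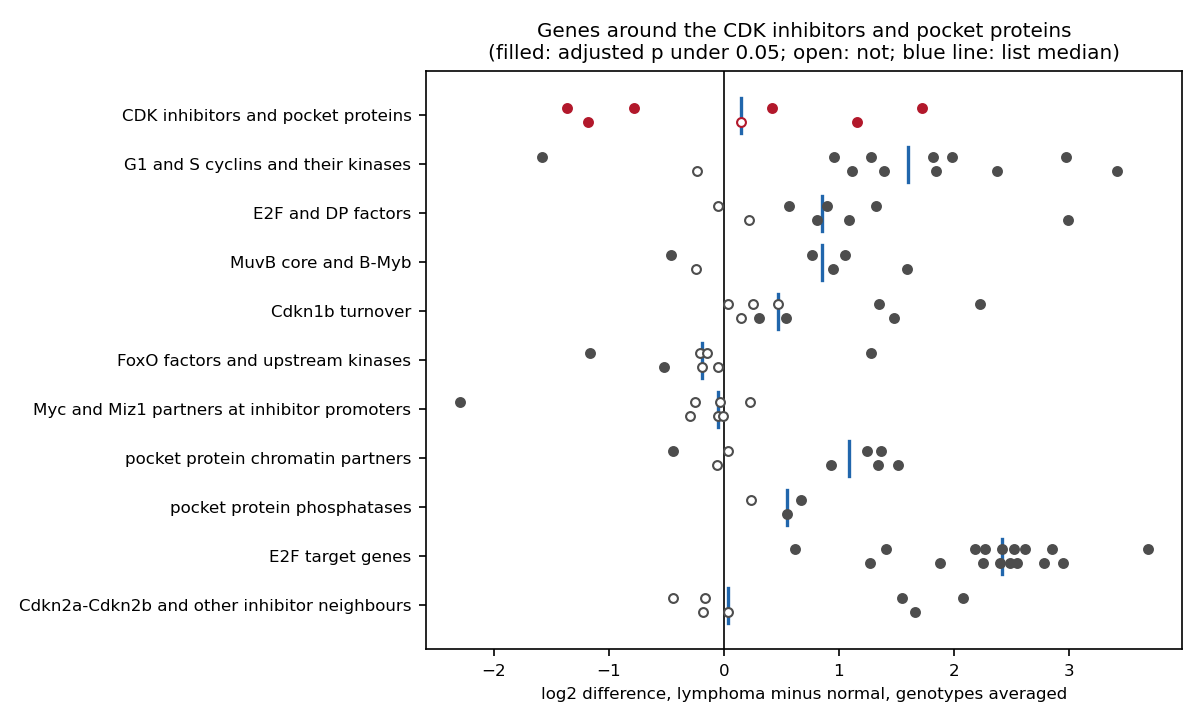
Log2 difference, lymphoma minus normal with genotypes averaged, of each measured gene in the 7 inhibitor and pocket protein genes (red) and in the lists around them, with filled points past the adjusted threshold and a line at each list median. The 17 E2F target genes were all higher, with a median of 2.42, while the 7 genes lay on both sides of 0, between -1.36 and 1.72.

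For each gene whose group means differed by at least 1 on the log2 scale, the 3 genes with the most similar pattern over the 16 arrays were found by the root mean square difference of centred levels. For Cdkn2c they were Selenoi (0.23), Paxip1 (0.23) and Nop14 (0.25). For Rb1 they were Fndc3a (0.20), Slc25a36 (0.21) and Dmxl1 (0.22). For Rbl1 they were the proteasome ATPase genes Psmc5 (0.16) and Psmc4 (0.16) and Mtrex, an RNA helicase of the nuclear exosome (0.16). For Rbl2 they were Fam3c (0.20), Nab1 (0.21) and Cyld (0.21). The arrays differ in cell type and genotype, and all the similar genes named were themselves called between lymphoma and normal cells. The largest limma adjusted p among them was 0.00133, for Cyld. The likeness thus includes the step between the cell types and is a description of the 16 arrays.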

How the data were processed

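The log2 intensities of 23332 transcript clusters on 16 mouse exon arrays were used as the authors deposited them. The submitters' processing notes name the software Partek 6.5 and the genome build mm8 without saying what each was used for. Summary, background treatment, normalization and log base are not given in the sources used here, and log2 was taken because natural logs would put the highest intensity at 726214. Of the clusters, 14996 carried 1 gene symbol, 1019 several and 7317 none. Each gene was represented by its brightest single-symbol cluster, which left 14860 genes. No counts lie behind these values, so the number of arrays limits the precision.

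The 16 arrays were fitted in limma 3.58.1 (R 4.3.3) with 1 mean per group, with moderated variances, two-sided tests and Benjamini-Hochberg adjustment over all 14860 genes at a threshold of 0.05. SE is the moderated standard error. Differences run lymphoma minus normal or p53-246 minus p53-null, and folds are 2 to the power of their size. The script was tested on simulated data. The genes named are all listed inhibitors and pocket proteins, and from each other list up to 3 called genes with the largest rise and up to 3 with the largest fall. Cdk4, Cdk6, Zbtb17 and Cdkn1a were named outside this rule, after their values were seen. Genes, lists, marker lists and tests were chosen with earlier results of these data known. The closing paragraphs give the effect of up to 25 alternatives per result, which changed the scaling, weights, filter, gene summary, moderation or samples. Promoters came from RefSeq on GRCm38.p6, which 14941 of the single-symbol clusters matched by identifier.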

Additional observations from a re-analysis of the deposited data

Results flagged for a closer look

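Of 14 sets of 6 values, 7 genes in each of 2 lymphoma groups, 1 held a sample far from the others. Rbl2 was at 6.43 in p53-246 lymphoma 6, while the other p53-246 lymphomas lay between 7.19 and 7.57. The gap to the nearest sample made up 0.672 of the whole range, above the critical value of 0.625, and chance alone marks about 5% of such sets. The same array had the lowest Rb1 level (7.91) and was one of the 2 whose levels spread least over genes (SD 1.56). Without it the fall of Rbl2, lymphoma minus normal, was 2.15-fold averaged over the genotypes (limma adjusted p = 3.93e-05) and 2.27-fold within p53-246 (limma adjusted p = 0.00103).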

How the results depend on the processing

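Over 42 results, 7 genes in 6 contrasts, the alternatives gave 1044 values, of which 1001 kept their direction and side of the threshold, 9 lost a call, 4 gained one and 30 changed sign. None of the 423 values of called results changed sign. Averaged over the genotypes, all 6 called genes kept their call under every alternative in which they were tested. Cdkn2b dropped out of the filter on low values. The largest adjusted p there was 0.0322, for Cdkn2b. The calls lost or gained within a genotype stand beside their results, and where no value above shows a cause, the cause was not tested. Sizes moved with the scaling. Averaged over the genotypes, quantile normalization gave smaller log2 differences for Cdkn2c (1.56) and Rbl1 (0.865). It gave larger falls for Cdkn1b (-0.94), Rb1 (-1.52) and Rbl2 (-1.46). The count of genes called within p53-246 was 3738 and became 6180 with array weights. Leaving out 1 array gave 2407 to 4508 within p53-246, 2856 to 5676 within p53-null, 0 to 532 between genotypes in normal cells and 0 to 473 for the interaction. The low ends came without p53-246 normal sample 2 (2407; without sample 1, 2418) and without p53-null normal sample 1 (2856). The high ends of 532 and 473 came without p53-null normal sample 2, and without p53-246 normal sample 1 there were 4 and 2. Such fits leave 1 array in a normal group, which is assumed to vary like the others. The sign changes were all in uncalled genotype results. Between genotypes in lymphomas, Cdkn2b was at 0.0095 with array weights (-0.0831 to 0.0307 leaving out 1 array), Rbl1 at 0.064 after quantile normalization, 0.0022 with weights and 0.019 without the narrow arrays (-0.0669 to 0.0328), and Rbl2 at 0.0031 without the narrow arrays (-0.25 to 0.0031). In normal cells without the narrow arrays, Cdkn2c was at -0.22 (-0.22 to 0.28) and Rbl1 at -0.025 (-0.025 to 0.48), and leaving out 1 array gave -0.59 to 0.022 for Cdkn1b and -0.0069 to 0.17 for Cdkn2b. The interaction of Rbl1 was 0.044 without the narrow arrays (-0.49 to 0.016), and that of Cdkn1c ran between -0.10 and 0.042. Centring arrays moved the median gene by 0.10 averaged and by 0.13 within p53-null, and it made the share of calls that were higher 63.3% against 53.4% averaged and 66.95% against 54.9% within p53-null. Averaged, lower calls outnumbered higher ones with array weights (48.35% higher), over all transcript clusters (47.64%) and without p53-246 lymphoma 6 (46.04%) or p53-null normal sample 2 (45.68%). With the replicate block, 4475 genes were called averaged, 3183 within p53-246, 3863 within p53-null and 0 in the other contrasts, with 6, 5, 6 and 0 of the 7 genes. The deviations of same-numbered lymphomas from their group means correlated at -0.31 to 0.33. None of the 6 p53-246 lymphomas was closest to its own number, while p53-null lymphomas 4 and 6 were, at 0.33 and 0.19. The numbers were not taken as pairs.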
